A study of Mus musculus with 8 samples.

Results

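The genes described here are 52 regulators of chromatin with known ties to myeloid leukaemia, chosen by name: Polycomb and trithorax proteins, DNA methylation enzymes, histone demethylases and acetylation enzymes. A probe set counted for a regulator only where the array's annotation gave it exactly that symbol, which left 44 of the 52 with a value, among 11836 genes tested in all. The 44 had 101 probe sets, of which 86 lay above the filter on low values. All 44 passed that filter with at least 1 probe set. For Kmt2a, Phf19, Cbx8, Tet1, Kdm6b, Hdac3, Ep300 and Smarca4 no probe set carried the symbol alone, so these 8 were not analysed here.

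Gene expression was measured on 8 Affymetrix arrays, 4 of Meis1 deleted cells and 4 of cells with Hoxa9 and Meis1. Both groups are immortalized myeloid cells, grown from C57BL/6 mouse bone marrow that carries a Cre-ERT2 knock-in at Rosa26, and made by retroviral Hoxa9 and a floxed Meis1. The deleted group received 2 µM 4-hydroxytamoxifen, which activates this Cre and removes the Meis1 cDNA, while the other group is described as the original cells. Drug, Cre activity and loss of Meis1 therefore cannot be told apart. Both groups grew in 10% serum with 5 ng/ml interleukin-3 and keep the retroviral Hoxa9 and whatever endogenous Meis1 they have. The protocol describes an exogenous cDNA under a retrovirus, not the endogenous gene, and does not name separate cultures. The p-values below may therefore measure technical spread only.

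Chromatin regulators set which genes a myeloid cell can use. Polycomb repressive complex 2 (PRC2) writes a repressive methyl mark on histone H3 and Polycomb repressive complex 1 (PRC1) ubiquitinates histone H2A, while trithorax-type MLL methyltransferases mark active promoters. In leukaemia with MLL fusions, MLL with its partners menin and LEDGF, and the methyltransferase DOT1L, are known to keep Hoxa9 and Meis1 expressed. DNMT3A, TET2, IDH1, IDH2, ASXL1 and EZH2 are among the genes recurrently mutated in myeloid malignancy.

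For orientation, the promoters of the regulators with the largest rises and falls are printed first, as the 250 bases before a RefSeq transcription start (GRCm38.p6), on the strand of the gene. They are Dnmt3a, with 2 starts, and Ezh1, which rose, and Eed and Idh2, which fell. Where starts lay close together, only that with the lowest coordinate is printed. Psip1, which fell most, had no entry. Capitals mark the letters TGACAG, a core motif of MEIS proteins, on either strand.
Dnmt3a, start 1, chr12:3806730-3806979, plus strand: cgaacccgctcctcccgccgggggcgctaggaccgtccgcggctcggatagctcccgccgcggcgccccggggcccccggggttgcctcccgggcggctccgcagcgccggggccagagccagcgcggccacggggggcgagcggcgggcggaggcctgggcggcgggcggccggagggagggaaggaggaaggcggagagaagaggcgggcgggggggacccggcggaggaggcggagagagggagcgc
Dnmt3a, start 2, chr12:3891494-3891743, plus strand: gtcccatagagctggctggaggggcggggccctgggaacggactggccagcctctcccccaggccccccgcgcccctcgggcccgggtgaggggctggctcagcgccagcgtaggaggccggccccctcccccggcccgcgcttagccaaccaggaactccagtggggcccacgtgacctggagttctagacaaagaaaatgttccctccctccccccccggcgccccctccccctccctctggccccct
Ezh1, chr11:101226464-101226713, minus strand: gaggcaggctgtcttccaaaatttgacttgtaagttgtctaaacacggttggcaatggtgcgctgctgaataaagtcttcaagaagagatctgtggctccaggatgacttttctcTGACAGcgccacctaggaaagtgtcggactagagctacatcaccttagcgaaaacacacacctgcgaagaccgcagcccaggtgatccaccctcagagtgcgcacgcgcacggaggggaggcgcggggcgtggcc
Eed, chr7:89980977-89981226, minus strand: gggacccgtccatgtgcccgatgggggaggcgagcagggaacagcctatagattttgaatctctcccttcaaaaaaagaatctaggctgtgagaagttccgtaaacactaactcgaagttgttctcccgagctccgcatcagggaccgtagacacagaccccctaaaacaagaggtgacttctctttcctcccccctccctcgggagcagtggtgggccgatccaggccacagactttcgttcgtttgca
Idh2, chr7:80115351-80115600, minus strand: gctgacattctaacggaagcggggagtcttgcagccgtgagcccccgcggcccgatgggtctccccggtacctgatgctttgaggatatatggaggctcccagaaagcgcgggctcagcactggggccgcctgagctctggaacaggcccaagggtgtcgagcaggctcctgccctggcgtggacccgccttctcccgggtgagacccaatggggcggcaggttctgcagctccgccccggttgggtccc

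Of these 5 windows, only that of Ezh1 held TGACAG, on the printed strand. Over the 37 regulators with an entry, 9 of 53 windows (17%) held it on either strand, against 15.9% of all 32851 windows in the table. It stood in 2 of 12 windows of regulators that rose and in 0 of 7 windows of those that fell. TGATTNAT, a motif of HOX and PBX proteins, stood in 1 of 53 windows (1.89%), against 2.82% of all windows. The regulators' windows were rich in G and C, with a median of 67.6% and 22 CpG dinucleotides, against 52.4% and 6 over all windows. All these counts take every window, so a regulator with several starts counts more than once. The letters describe the windows and show no binding.

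The values are log2 expression values as deposited, so a difference of 1 is a doubling. A probe set's level cannot be set against that of another probe set. Each gene is represented by its probe set with the highest mean over the 8 arrays, and differences were tested with limma, an empirical Bayes linear model, over all genes, with adjusted p under 0.05 as the threshold. Calls on further probe sets of a gene are adjusted over all 18749 kept probe sets with 1 symbol. Of all genes tested, 35.5% passed, 18.1% upward and 17.5% downward. Of the 44 regulators, 7 rose and 8 fell, or 34.1%, close to that background. Their median log2 fold change was 0.003, against -0.004 over all genes tested, and their median absolute change was 0.145, against 0.127. The groups did not overlap for 17 of the 44, 7 higher and 10 lower in Meis1 deleted cells, and this holds for 38.6% of all genes tested, the same share. No regulator both passed and changed at least 2-fold (0 of 44), which 3.19% of all genes did. Except for Dnmt3a, every called regulator changed by less than 0.5 on the log2 scale. The shares over all genes are also the background for the counts of each group below, where few genes were tested.

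**Figure D1:**
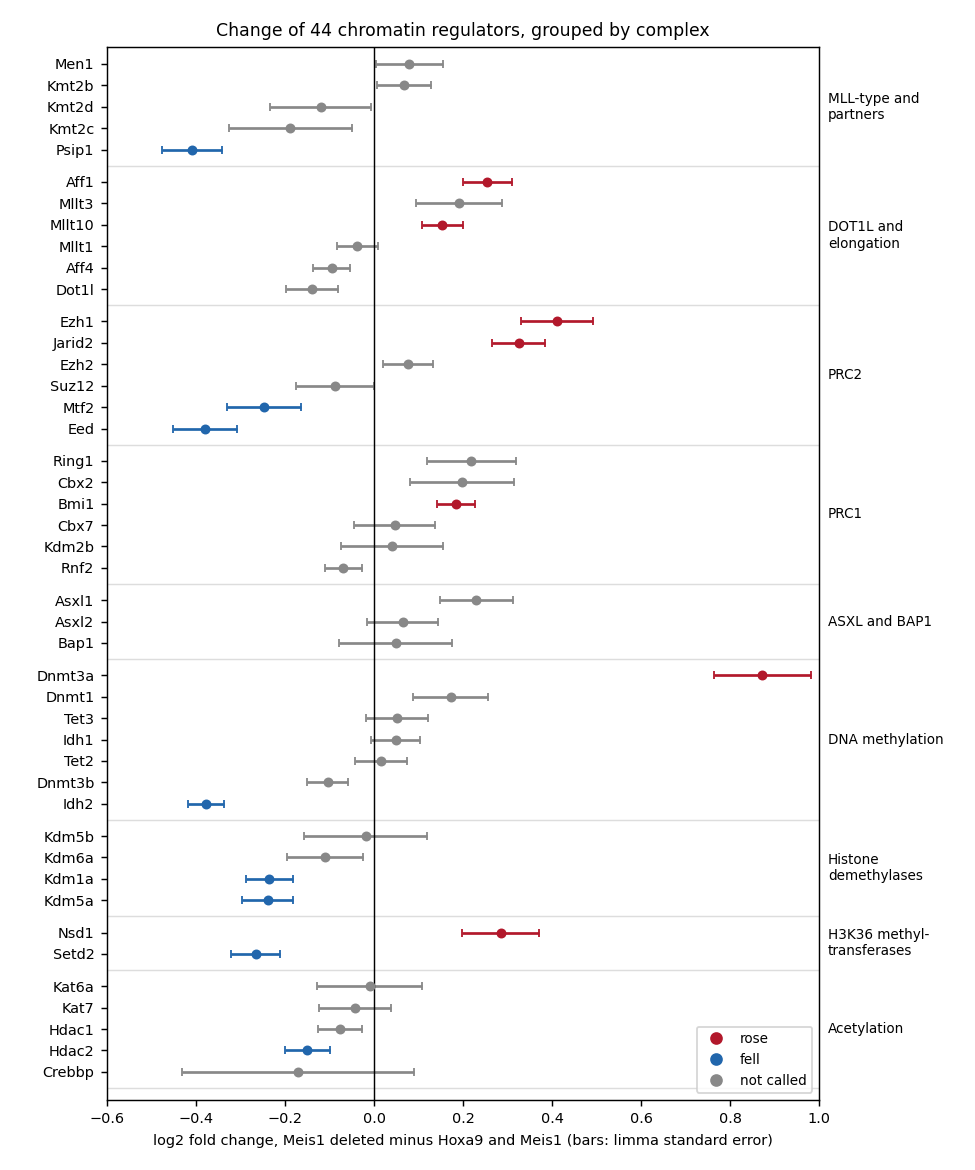
Log2 fold change (Meis1 deleted minus Hoxa9 and Meis1) of the 44 chromatin regulators by role, with limma standard errors; colours mark those that rose or fell at an adjusted p under 0.05. Dnmt3a stands apart at 0.87, and the other 43 lie between -0.41 and 0.41.

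The arrays set limits on these results that are given once here. Meis1 deleted replicate 1 had a 3' to 5' difference of 0.72 at the Gapdh control, against -0.07 to 0.04 on the other 7 arrays. The bioB spike control, a bacterial transcript added in the assay, divided the arrays into 2 sides, with 4.04 to 4.28 on Meis1 deleted replicates 1, 2 and 3 and Hoxa9 and Meis1 replicates 1 and 2, and 6.43 to 6.61 on the other 3. Whether Meis1's higher probe set lies within the cDNA is not known here, and it read 5.02 ± 0.07 in Meis1 deleted cells, against 5.00 ± 0.05 in Hoxa9 and Meis1 cells (SD, n = 4 each), so the deletion cannot be read from it. All 10 general myeloid markers, which check the labelled cell type, were above the filter, with a list mean of 10.80 to 10.89 on Meis1 deleted arrays, against 10.70 to 10.72 on the others; 5 rose and 3 fell. All 10 macrophage markers rose, with a list mean between 9.68 and 9.77 on Meis1 deleted arrays and between 6.10 and 6.21 on the others, while T cell, B cell, erythroid and stromal list means stayed under 5 in both groups. Within these lists the erythroid Epor rose by 0.22 (adjusted p = 0.0351). The stromal Acta2, the only stromal marker above the filter, read 9.36 ± 0.15 in Meis1 deleted cells, against 9.41 ± 0.06 in Hoxa9 and Meis1 cells (SD, n = 4 each; adjusted p = 0.655). The part of this macrophage-marker difference in the results below was not tested, and in these bulk samples fewer cells of a type and less RNA per cell cannot be told apart.

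Among the MLL-type methyltransferases and their partners, 0 of 5 rose and 1 fell, and the median was -0.12 (-0.0354 without Hoxa9 and Meis1 replicate 1 and -0.0394 without Meis1 deleted replicate 4). Psip1, which encodes LEDGF, the adaptor that ties menin and MLL to chromatin, read 8.41, 8.24, 8.48 and 8.49 in Meis1 deleted cells, against 8.73, 8.77, 8.88 and 8.88 in cells with Hoxa9 and Meis1. All 4 deleted arrays lay below all 4 others, and the log2 fold change was -0.41 ± 0.07 (SE; adjusted p = 0.00125). Its other kept probe set, at a lower level, changed by -0.08 and did not pass. With the mean of the probe sets in place of the higher one, the change was -0.24 with an adjusted p of 0.0702. The catalytic Kmt2b, Kmt2c and Kmt2d had log2 fold changes of 0.07, -0.19 and -0.12, and Men1, which encodes menin, 0.08. None of these 4 passed. Among the untreated arrays the probe sets used for Kmt2c and Kmt2d differed between spike sides, by 0.41 and -0.34 (high minus low). A second Kmt2c probe set went the other way there, reading 8.33 and 8.30 on low-side and 7.96 and 7.94 on high-side arrays. None of the 4 kept Kmt2c probe sets passed, with changes from -0.35 to -0.08. With the spike sides as a block Kmt2d changed by -0.20, with an adjusted p of 0.0154.

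Of DOT1L and its elongation partners, 2 of 6 rose and none fell, and the median was 0.06. Aff1, a scaffold of the super elongation complex and, in human leukaemia, a frequent MLL fusion partner, read 9.32, 9.14, 9.11 and 9.17 in Meis1 deleted cells, against 8.90, 8.90, 8.97 and 8.96 in cells with Hoxa9 and Meis1. The deleted arrays were all higher, by 0.25 ± 0.06 (SE; adjusted p = 0.00638), and the mean of its probe sets gave 0.17, also past the test. Mllt10, a DOT1L cofactor that is also an MLL fusion partner, read 8.61, 8.68, 8.75 and 8.71 in Meis1 deleted cells, against 8.56, 8.53, 8.50 and 8.54 in cells with Hoxa9 and Meis1, without overlap. Its rise of 0.15 ± 0.05 (SE; adjusted p = 0.0274) was the smallest among the 7. It was lost when any 1 array other than deleted replicate 1 or Hoxa9 and Meis1 replicate 1 was left out. Dot1l itself changed by -0.14 ± 0.06 (adjusted p = 0.0968), and the acetyl-histone readers Mllt1 and Mllt3 by -0.04 and 0.19, none of them past the test. For Mllt3 a second probe set passed, at 0.22, and the mean of its probe sets gave 0.20, also past the test (adjusted p = 0.0205). Aff4, the partner scaffold of Aff1, was lower on all 4 deleted arrays but did not pass, with 9.18 ± 0.04 in Meis1 deleted cells, against 9.28 ± 0.01 in Hoxa9 and Meis1 cells (SD, n = 4 each; adjusted p = 0.108). A second Aff4 probe set fell by 0.16, and the mean of its kept probe sets gave -0.13, past the test (adjusted p = 0.0215).

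PRC2 had 4 of 6 tested subunits past the test, 2 in each direction, against 35.5% of all genes tested. With 6 genes, the difference in share was not tested. The PRC2 median was -0.01 (-0.0504 within the low spike side and 0.0285 within the high side). Ezh1, the catalytic subunit typical of resting and differentiated cells, read 7.72, 7.47, 7.49 and 7.69 in Meis1 deleted cells, against 7.00, 7.21, 7.25 and 7.26 in cells with Hoxa9 and Meis1. Its values did not overlap between groups, and it rose by 0.41 ± 0.08 (SE; adjusted p = 0.0037). Ezh2, the catalytic subunit typical of dividing cells, read 8.99 ± 0.10 in Meis1 deleted cells, against 8.92 ± 0.02 in Hoxa9 and Meis1 cells, and its change of 0.08 ± 0.06 did not pass (adjusted p = 0.334). Eed, the subunit that binds the PRC2 mark and activates the enzyme, read 9.30, 9.30, 9.11 and 9.35 in Meis1 deleted cells, against 9.55, 9.60, 9.63 and 9.79 in cells with Hoxa9 and Meis1, and fell by 0.38 ± 0.07 on the log2 scale (SE; adjusted p = 0.0026). Suz12, the other core scaffold, changed by -0.09 and did not pass (adjusted p = 0.479).

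The accessory PRC2 subunits Jarid2 and Mtf2, which bring the core to its targets in different complexes, passed in opposite directions. Jarid2 read 9.21, 9.09, 9.07 and 9.06 in Meis1 deleted cells, against 8.86, 8.79, 8.83 and 8.65 in cells with Hoxa9 and Meis1, a rise of 0.32 ± 0.06 (SE; adjusted p = 0.00238). A second Jarid2 probe set rose by 0.26 and the remaining one changed by 0.30 without passing. Mtf2 read 9.35, 9.70, 9.75 and 9.69 in Meis1 deleted cells, against 9.88, 9.85, 9.88 and 9.86 in cells with Hoxa9 and Meis1, all lower in deleted cells, with a change of -0.25 ± 0.08 (SE; adjusted p = 0.0462). Deleted replicate 1 was the lowest of the 8 arrays for Mtf2. Without it the change was -0.16 with an adjusted p of 0.0131, while the call ended without any 1 array other than deleted replicate 1 or 3. Of the 4 further Mtf2 probe sets, 3 were negative, and 2 of them passed, falling by 0.24 and 0.29. The mean of all 5 gave -0.15, past the test, while quantile normalization, no filter and the spike sides as a block each ended the call.

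**Figure D2:**
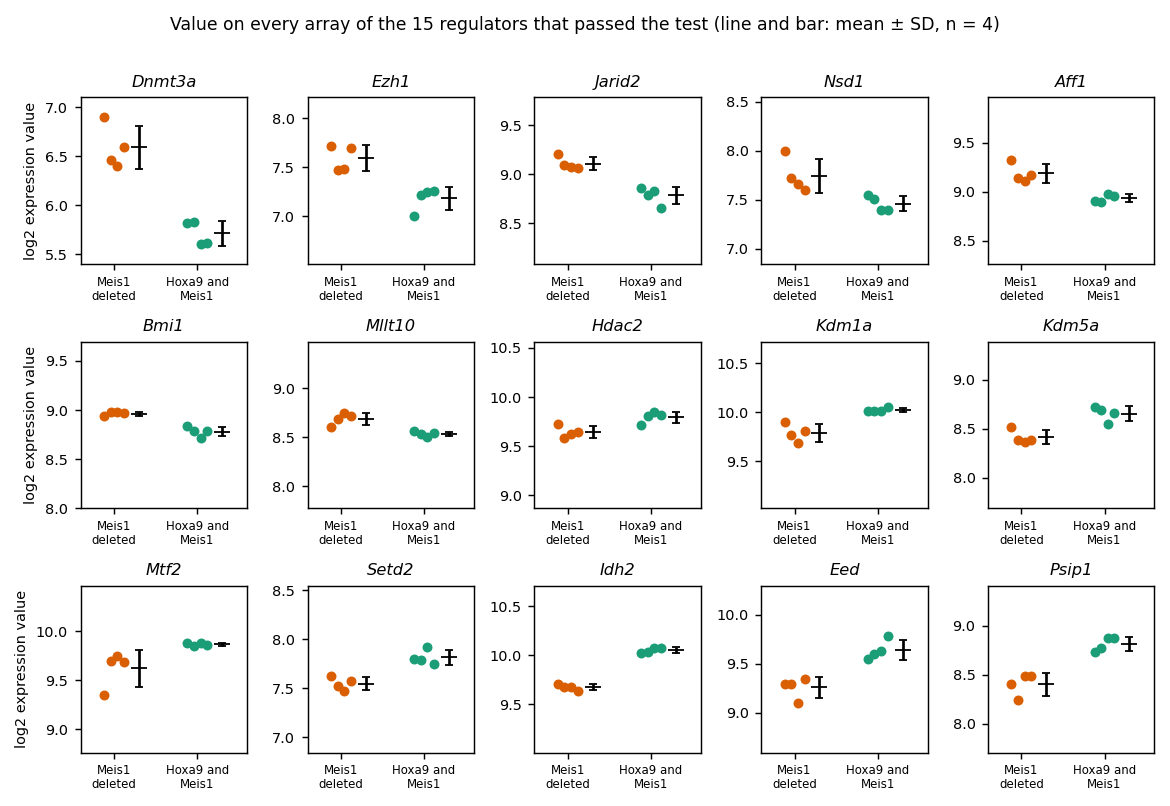
Log2 expression value on each of the 8 arrays for the 15 chromatin regulators that passed the test, Meis1 deleted arrays left of Hoxa9 and Meis1 arrays, with mean and SD (n = 4 each); every panel covers the same span of log2 units. The groups overlap for Hdac2 alone.

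In PRC1, 1 of 6 rose and none fell. Bmi1, the PCGF subunit of canonical PRC1 that blood stem cells need to self-renew, read 8.94, 8.98, 8.98 and 8.96 in Meis1 deleted cells, against 8.84, 8.78, 8.72 and 8.78 in cells with Hoxa9 and Meis1, a rise of 0.18 ± 0.04 (SE; adjusted p = 0.00876). The deleted arrays differed from each other by less than 0.05, and a second probe set rose by 0.28. Its ubiquitin ligase partners were Ring1, at 0.22 ± 0.10 (adjusted p = 0.123), and Rnf2, at -0.07 ± 0.04 (adjusted p = 0.236). Neither passed, although Rnf2 was lower on all 4 deleted arrays. Ring1 read 5.56, 5.55, 5.53 and 5.33 in Meis1 deleted cells, against 5.47, 5.43, 5.08 and 5.13 in cells with Hoxa9 and Meis1, and among the arrays of Hoxa9 and Meis1 the high spike side minus the low side was -0.34. With the spike sides as a block its change was 0.15 and passed (adjusted p = 0.0356). The chromodomain subunits Cbx2 and Cbx7 changed by 0.20 and 0.05, and Kdm2b, which brings variant PRC1 to CpG islands, by 0.04. None of these 3 passed.

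Asxl1, Asxl2 and Bap1, parts of the deubiquitinase that removes the PRC1 mark, gave 0 calls of 3, with log2 fold changes of 0.23, 0.06 and 0.05. Asxl1 was close to the threshold and read 8.31, 8.30, 8.26 and 8.03 in Meis1 deleted cells, against 8.14, 8.04, 7.87 and 7.93 in cells with Hoxa9 and Meis1 (adjusted p = 0.0545). Its 2 probe sets disagreed. The lower one read 7.52 ± 0.09 in Meis1 deleted cells, against 7.81 ± 0.04 in Hoxa9 and Meis1 cells (SD, n = 4 each), and fell by 0.29 (adjusted p over probe sets = 0.0031). No direction is given for Asxl1 for this reason.

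In the DNA methylation group, 1 of 7 rose and 1 fell. Dnmt3a, a DNA methyltransferase that sets new methyl marks, read 6.90, 6.46, 6.40 and 6.59 in Meis1 deleted cells, against 5.82, 5.83, 5.60 and 5.61 in cells with Hoxa9 and Meis1. Every deleted array exceeded every other array by more than 0.5, and the log2 fold change of 0.87 ± 0.11 (SE; adjusted p = 2.30e-04) is a linear fold of 1.83. Among all genes tested, this change was larger in absolute size than 96.1%. All 5 Dnmt3a probe sets rose, the other 4 by 0.56, 0.77, 0.49 and 0.42. Deleted replicate 1 had the highest value, and without it the change was 0.77. With an offset of 64 added on the linear scale it was 0.46, also past the test. Within the low and high spike sides it was 0.76 and 0.99.

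The other methyltransferases did not pass. Dnmt3b read 7.92 ± 0.03 in Meis1 deleted cells, against 8.02 ± 0.05 in Hoxa9 and Meis1 cells (SD, n = 4 each), lower on all 4 deleted arrays, with an adjusted p of 0.104. Dnmt1, which copies methylation after replication, changed by 0.17 ± 0.08 (adjusted p = 0.146), and its deleted replicate 1 stood above the others. Tet2 and Tet3, which oxidise methylcytosine, changed by 0.02 and 0.05, and Tet3 lay next to the filter at 4.32 in Meis1 deleted cells, against 4.27 in Hoxa9 and Meis1 cells. Idh2, the mitochondrial isocitrate dehydrogenase that makes the α-ketoglutarate that TET enzymes use, read 9.71, 9.67, 9.68 and 9.64 in Meis1 deleted cells, against 10.02, 10.04, 10.08 and 10.08 in cells with Hoxa9 and Meis1. The arrays of each group lay within 0.1 of each other, and the fall of 0.38 ± 0.04 (SE; adjusted p = 9.17e-05) had the smallest adjusted p of the 44. Within the low and high spike sides it was -0.34 and -0.44. A second Idh2 probe set changed by -0.18 and did not pass (adjusted p = 0.0513). Its cytosolic counterpart Idh1 read 11.37 ± 0.08 in Meis1 deleted cells, against 11.32 ± 0.06 in Hoxa9 and Meis1 cells, and its change of 0.05 did not pass.

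**Figure D3:**
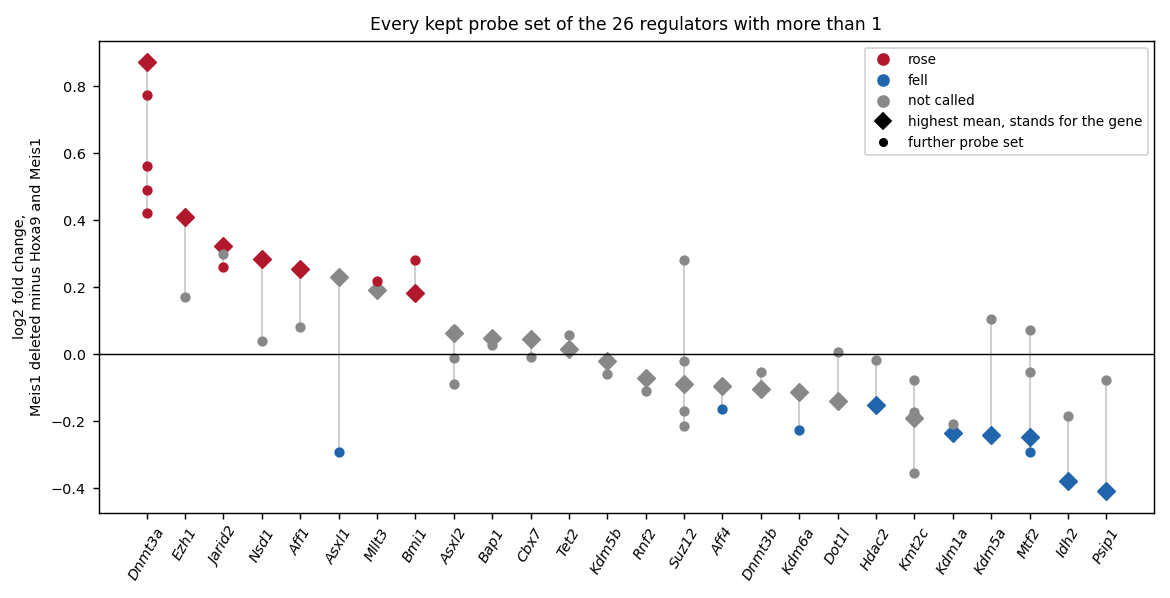
Log2 fold change (Meis1 deleted minus Hoxa9 and Meis1) of every kept probe set of the 26 chromatin regulators with more than 1, with diamonds for the probe set that stands for its gene and circles for the others. All 5 Dnmt3a probe sets are red, and the 2 of Asxl1 lie on opposite sides of 0.

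Among the histone demethylases, 0 of 4 rose and 2 fell, and the median was -0.17. Kdm1a, the LSD1 enzyme that removes methyl groups from histone H3 at active genes, read 9.89, 9.77, 9.68 and 9.81 in Meis1 deleted cells, against 10.01, 10.02, 10.01 and 10.06 in cells with Hoxa9 and Meis1, and fell by 0.24 ± 0.05 (SE; adjusted p = 0.00703). Kdm5a, which removes the promoter mark that MLL-type enzymes write, read 8.52, 8.39, 8.36 and 8.39 in Meis1 deleted cells, against 8.72, 8.69, 8.55 and 8.67 in cells with Hoxa9 and Meis1, and fell by 0.24 ± 0.06 (SE; adjusted p = 0.00955). The groups did not overlap for either gene. A second Kdm5a probe set also fell, by 0.25, while the weakest kept one changed by 0.11 without passing, and the mean of the 3 gave -0.13, which did not pass (adjusted p = 0.0521). Kdm5b, its paralogue, read 6.65, 7.29, 7.29 and 7.28 in Meis1 deleted cells, against 7.19, 7.17, 7.18 and 7.04 in cells with Hoxa9 and Meis1, with a change of -0.02 (adjusted p = 0.93). Of the deleted arrays, 3 lay above every array of Hoxa9 and Meis1 cells, and without deleted replicate 1 the change was 0.14 (adjusted p = 0.0496). Kdm6a, which removes the PRC2 mark, changed by -0.11 and did not pass (adjusted p = 0.355), while its second probe set fell by 0.23. The mean of its kept probe sets gave -0.17, past the test (adjusted p = 0.00493).

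Nsd1 and Setd2, histone H3 methyltransferases of transcribed gene bodies and, for Nsd1, also of regions between genes, passed in opposite directions. Nsd1 read 7.99, 7.72, 7.66 and 7.60 in Meis1 deleted cells, against 7.55, 7.51, 7.39 and 7.40 in cells with Hoxa9 and Meis1, a rise of 0.28 ± 0.09 (SE; adjusted p = 0.0293). Its deleted replicate 1 was the highest, and without it the change was 0.20 (adjusted p = 0.0196). The call ended without deleted replicate 2 or without Hoxa9 and Meis1 replicate 2, 3 or 4. Its other kept probe set changed by 0.04, and the mean of both gave 0.16 and did not pass (adjusted p = 0.0524). Setd2 read 7.63, 7.52, 7.47 and 7.57 in Meis1 deleted cells, against 7.80, 7.79, 7.92 and 7.75 in cells with Hoxa9 and Meis1, all lower in deleted cells, a fall of 0.27 ± 0.05 (SE; adjusted p = 0.00439). Another 8 probe sets carried several symbols, among them that of Nsd1, Psip1, Idh2 or Kdm6b, and were not used.

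The acetylation enzymes had 0 rises and 1 fall in 5. All 5 changes were negative, as were those of 6024 of the 11836 genes tested. The sign reversed in 7 of 23 alternative settings for Kat6a, 4 for Crebbp and 2 for Kat7. Hdac2, a class I histone deacetylase, read 9.73, 9.58, 9.62 and 9.64 in Meis1 deleted cells, against 9.71, 9.80, 9.85 and 9.81 in cells with Hoxa9 and Meis1, a fall of 0.15 ± 0.05 (SE; adjusted p = 0.0434). It was the only called regulator whose groups overlapped, since deleted replicate 1 lay above Hoxa9 and Meis1 replicate 1. Leaving out any 1 array other than deleted replicate 1 or Hoxa9 and Meis1 replicate 1 ended the call, as did no filter (adjusted p = 0.0527) and the spike sides as a block (adjusted p = 0.0619). Its other kept probe set changed by -0.02, and the mean of both gave -0.08 (adjusted p = 0.14). Hdac1, its paralogue, changed by -0.08 ± 0.05 (adjusted p = 0.263), and the acetyltransferases Kat6a and Kat7 by -0.01 and -0.04. Crebbp, the CBP acetyltransferase, read 7.20, 8.22, 8.50 and 8.43 in Meis1 deleted cells, against 8.20, 8.29, 8.51 and 8.04 in cells with Hoxa9 and Meis1. Its change of -0.17 ± 0.26 had an adjusted p of 0.649, and without deleted replicate 1 it was 0.12.

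**Figure D4:**
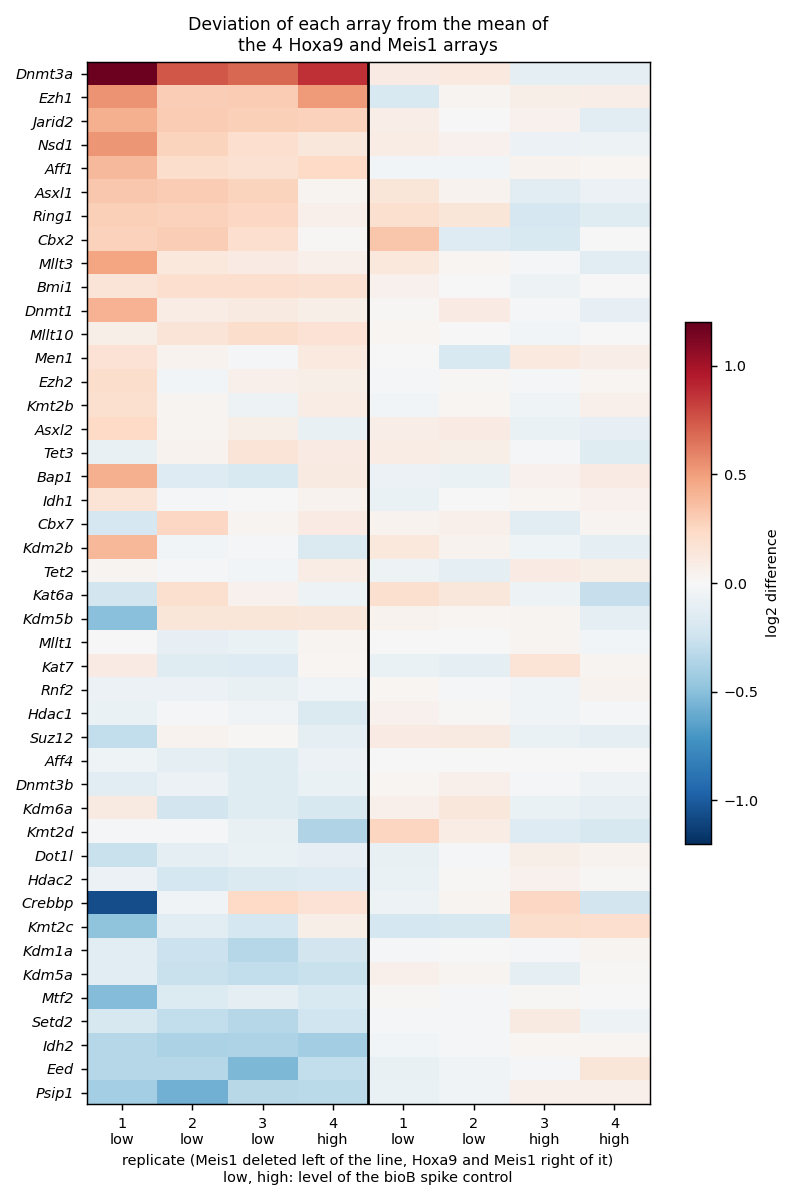
Difference on the log2 scale of each array from the mean of the 4 Hoxa9 and Meis1 arrays for the 44 chromatin regulators, ordered by log2 fold change, with Meis1 deleted arrays left of the line and the bioB spike side under each column. Crebbp on deleted replicate 1 and Dnmt3a on all 4 deleted arrays are the deepest colours.

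Deleted replicate 1, the array with the 3' shift at Gapdh, was below the mean of the other deleted arrays for Crebbp (a difference of -1.19), Kdm5b (-0.64) and Kmt2c (-0.40). It was above that mean by 0.51 for Bap1, 0.47 for Kdm2b and 0.41 for Dnmt3a. Without it all 15 called regulators still passed, and Kdm5b was added. Within the low spike side, with 3 deleted and 2 other arrays, 3 regulators rose (Ezh1, Jarid2 and Dnmt3a) and 3 fell (Psip1, Eed and Idh2). These are 6 of 44, beside 2114 of the 11836 genes tested that passed in the same fit. The regulators' median there was -0.0334. The high side holds 1 deleted and 2 other arrays, so its values are given without a call. All 15 kept their direction within both sides. For the 14 whose groups did not overlap this was fixed beforehand, since any subset of the arrays gives the same sign. For Ezh1 the change was 0.45 and 0.44 within the low and high sides, for Psip1 -0.37 and -0.39, for Eed -0.34 and -0.36 and for Jarid2 0.30 and 0.32. For the rest of the 15, the changes within the sides were 0.29 and 0.21 for Aff1, 0.13 and 0.19 for Mllt10, -0.27 and -0.18 for Mtf2 and 0.15 and 0.21 for Bmi1. They were -0.23 and -0.23 for Kdm1a, -0.28 and -0.22 for Kdm5a, 0.27 and 0.21 for Nsd1, -0.26 and -0.26 for Setd2 and -0.11 and -0.19 for Hdac2.

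Over single probe sets, 14 of the regulators' 86 rose and 14 fell, against 32.8% called over all kept probe sets with 1 symbol. Of the 15 called regulators, 12 had several kept probe sets. For 5 of these, Dnmt3a, Jarid2, Bmi1, Mtf2 and Kdm5a, another probe set passed in the same direction, and 0 had one that passed in the opposite direction. In the remaining 7 the further probe sets did not pass. Among the 29 regulators without a call, Mllt3, Aff4, Asxl1 and Kdm6a had a lower probe set that passed.

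The complexes around the regulators were followed with 8 lists of 124 further genes, of which 99 were tested. Of these, 10 rose (10.1%) and 22 fell (22.2%), 32.3% in all, against 18.1%, 17.5% and 35.5% over all genes tested. Of 10 COMPASS and trithorax genes 1 fell, the shared COMPASS subunit Wdr5 at -0.23, and the mean of its probe sets gave -0.07 and did not pass (adjusted p = 0.151). In the elongation list of 11, Ell (0.23) and Ccnt2 (0.16) rose and Ell2 fell (-0.33). Of 5 other genes of PRC2, the accessory subunit Aebp2 (-0.23) and Lcor (-0.55) fell. Lcor encodes a nuclear receptor corepressor as well as the longer PRC2 subunit PALI1, and its probe set was not matched to either product. Of 15 other PRC1 genes, Phc3 rose (0.30) and 3 fell, among them Rybp (-0.28), a subunit of variant PRC1, and the H2A deubiquitinase Usp16 (-0.25). Of 9 other DNA methylation genes, the methyl-CpG binders Mbd4 (0.39) and Mbd2 (0.14) rose. The mean of its probe sets gave Mbd2 0.10, which did not pass (adjusted p = 0.38), and an offset of 64 gave Mbd4 0.26. Dnmt3l, the cofactor of Dnmt3a and Dnmt3b that lacks catalytic activity, fell (-0.51), as did Mbd3 (-0.21, or -0.14 with that offset).

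Of 16 other demethylases and methyltransferases, 2 rose, Ehmt2 (0.21) and Ehmt1 (0.14), partners in one methyltransferase complex. A further 3 fell, with Kmt5b (-0.66) and Prmt5 (-0.24) the furthest, and the mean of its probe sets gave Kmt5b -0.25, also past the test. Of 18 other acetylation genes, the acetyltransferase Kat2b rose (0.15) and 7 fell, led by the deacetylase Sirt1 (-0.76) and Ing5 (-0.55), a subunit of acetyltransferase complexes. The mean of probe sets gave Ing5 -0.25, past the test, and Kat2b 0.07, which did not pass (adjusted p = 0.289). The 15 BAF remodelling genes gave 2 rises, Dpf2 (0.26) and Brd7 (0.24), and 3 falls, among them Arid2 (-0.20) and Smarce1 (-0.16). Beside these, 0 of 25 DNA replication genes rose and 12 fell, against 18.1% and 17.5% of all genes tested. The list's median was -0.13, and the largest falls were E2f2 at -1.06 and Ccne2 at -0.46. The part of this replication-gene difference in the regulators' changes was not tested.

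Among these further genes, 12 calls depended on single arrays. When 1 array was left out, Mbd2 still passed only without deleted replicate 1, and Smarce1 only without Hoxa9 and Meis1 replicate 2. Kat2b and Ehmt1 passed only without deleted replicate 1 or, for Kat2b, Hoxa9 and Meis1 replicate 1 and, for Ehmt1, Hoxa9 and Meis1 replicate 2. Prmt5 passed only without deleted replicate 1 or 2. The call of Ell ended without deleted replicate 4 or Hoxa9 and Meis1 replicate 1 or 4, that of Ell2 without deleted replicate 2 or 3 or Hoxa9 and Meis1 replicate 2, and that of Ccnt2 without deleted replicate 2 or 3 or Hoxa9 and Meis1 replicate 4. It ended for Mbd3 without deleted replicate 4 or Hoxa9 and Meis1 replicate 2 or 4, for Ehmt2 without any of these 3 or Hoxa9 and Meis1 replicate 1, for Arid2 without replicate 3 of either group, and for Dpf2 without deleted replicate 2 or 3 or Hoxa9 and Meis1 replicate 3 or 4. With the spike sides as a block Prmt5 (adjusted p = 0.0531), Kat2b (adjusted p = 0.0506) and Smarce1 (adjusted p = 0.0522) did not pass.

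**Figure D5:**
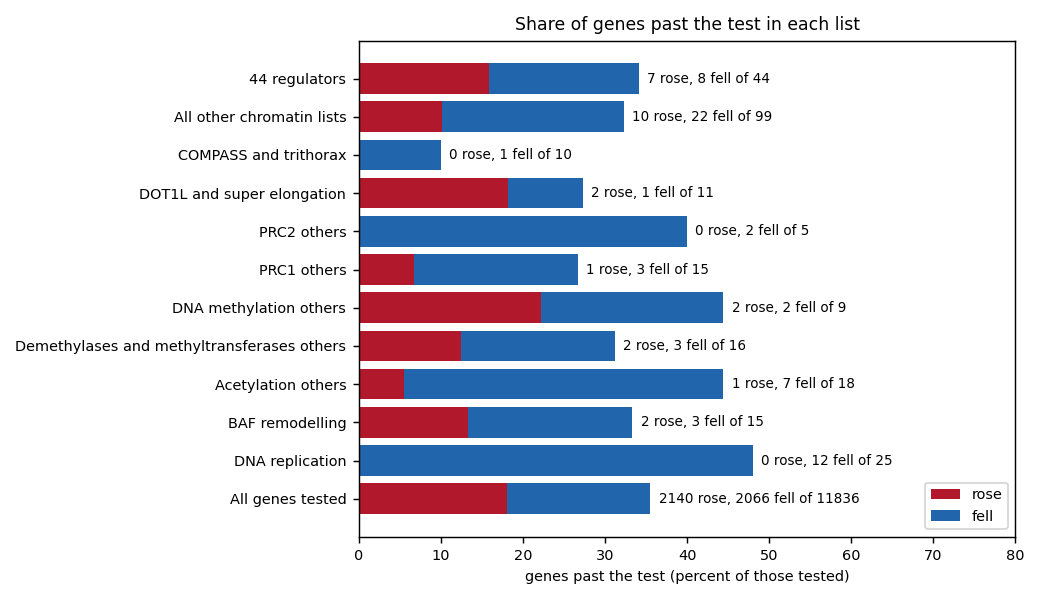
Percent of genes past the test, upward in red and downward in blue, for the 44 chromatin regulators, the lists of further chromatin and replication genes and all genes tested. The regulators (34.1%) and the further chromatin genes (32.3%) lie close to all genes (35.5%), and the replication list has falls only.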

How the data were processed

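Expression was measured on 8 one-colour Affymetrix arrays (100 ng of total RNA each), 4 per group, with groups from the sample labels. The deposited values are log2, judged from their range of 2.65 to 13.2. Array medians of 4.69 to 4.74 show that the authors' deposited values are on a common scale. The submitters' processing notes name MAS5 without version or role, and the sources used here do not give the summarisation method. The number of arrays limits the precision.

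Of 45141 probe sets, 104 controls were left out, and so was the lowest 40% by mean (below 4.29), leaving 27022. Symbols came from GEO's platform annotation, with 1 symbol for 28898 probe sets, several for 551 and none for 15588. Differences were fitted with limma 3.58.1 in R 4.3.3 on all kept probe sets, with p-values adjusted over 11836 genes by Benjamini and Hochberg's method and 0.05 as the threshold. The procedure was tested on simulated data with independent noise for each probe set. That simulation held neither the spike sides nor the shift of deleted replicate 1, so it does not cover those limits. Plots were drawn with matplotlib 3.10.9 in Python 3.11.15. Promoters came from RefSeq (GRCm38.p6).

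The regulators and the further lists were chosen with earlier results of these data known. All 52 were named, and from each further list up to 2 genes with the largest rise and up to 2 with the largest fall among those called. No 2 arrays held identical values. Same-numbered arrays deviated with correlations of -0.13 to 0.29, and the numbers were not taken as pairs. Replicate 3 lies on different spike sides in the 2 groups, so this check cannot decide on pairing. Alternatives covered the offset, normalization, filter, choice of probe set, eBayes options, array weights, the replicate block, each array left out and the spike sides. The fit with the variance prior from the tested genes alone was chosen after seeing the data.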

Additional observations from a re-analysis of the deposited data

Results flagged for a closer look

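In groups of 4 arrays, a highest or lowest array was marked where its gap to the nearest of the others exceeded Dixon's critical share of the group's range. This marked 11 of 140 groups over the 44 regulators and the genes of the further lists named above. Chance marks about 1 in 20, and 7 of the 11 were Meis1 deleted replicate 1, the array with the 3' shift at Gapdh, whose part in these values was not tested. On that array Mllt3 read 5.67 (5.26 to 5.32 on the other 3), Jarid2 9.21 (9.06 to 9.09) and Dnmt1 9.90 (9.55 to 9.59), all high. Low there were Mtf2 at 9.35 (9.69 to 9.75), Kdm5b at 6.65 (7.28 to 7.29), Lcor at 7.92 (8.16 to 8.20) and Smarce1 at 9.77 (9.88 to 9.89). On Meis1 deleted replicate 4, Ring1 read 5.33 (5.53 to 5.56). Among the arrays of Hoxa9 and Meis1, replicate 3 was low for Cbx7 at 4.62 (4.79 to 4.81), replicate 4 low for Kdm5b at 7.04 (7.17 to 7.19), and replicate 4 high for Kdm1a at 10.06 (10.01 to 10.02).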

How the results depend on the processing

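Over 23 alternative settings, no called regulator reversed. In the fits that only left out arrays, this was fixed beforehand for the 14 whose groups did not overlap. Dnmt3a, Ezh1, Idh2, Eed and Jarid2 passed in every setting other than the fit with a single deleted array, which is given without a call. Aff1, Bmi1, Kdm1a and Setd2 passed in every setting other than the fits within 1 spike side. Of the 29 regulators not called, 20 passed in no setting. The other 9, Kmt2d, Mllt3, Aff4, Ring1, Cbx2, Asxl1, Dnmt3b, Kdm5b and Kdm6a, passed in at least 1. Leaving out 1 array gave 3426 to 4673 genes past the threshold, 5 to 9 regulators that rose and 6 to 8 that fell. Mllt10 and Hdac2 were lost without Meis1 deleted replicate 3, Mtf2 without Hoxa9 and Meis1 replicate 1, Mllt10, Mtf2 and Hdac2 without Meis1 deleted replicate 4, and these and Nsd1 without Meis1 deleted replicate 2 or Hoxa9 and Meis1 replicate 2, 3 or 4. The replicate block gave 3906 genes, with 7 regulators up and 6 down: Mllt10, Mtf2 and Hdac2 were lost and Asxl1 gained, and of the further genes named it ended the calls of Ell, Mbd2, Mbd3, Ehmt1, Ehmt2, Prmt5, Kat2b and Smarce1. Only 1 of 4 deleted arrays correlated best with its own number. With the spike sides as a block, 4241 genes passed, and Kmt2d, Ring1 and Asxl1 were gained and Mtf2 and Hdac2 lost. With deleted replicate 1 also left out, none of the 15 called regulators was lost. Kmt2d, Aff4, Ring1, Asxl1, Kdm5b and Kdm6a were gained, which made 10 regulators up and 11 down. Mtf2 was lost with quantile normalization and, with Hdac2, with no filter. The mean of probe sets lost Psip1, Kdm5a, Nsd1 and Hdac2 and gained Mllt3, Aff4 and Kdm6a, with 7 regulators up and 7 down. Each probe set alone gave 6145 calls of 18749.

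Within the low spike side 2114 genes passed, 3 regulators rose and 3 fell, and the medians were -0.0334 for all regulators and -0.0504 for PRC2. Within the high side 2158 genes passed, 2 regulators rose and 2 fell, and the PRC2 median was 0.0285. The high side holds a single deleted array, whose spread was assumed to equal that of the other group. Its calls have no replicate behind them in the deleted group. The high-side counts above are therefore only a record of that fit, and no result is drawn from them. No gene is named as called in it. An offset of 64 gave the DOT1L group a median of 0.0264, which was -0.0378 with a filter of 60%, 0.0210 with array weights, 0.0182 with the spike block and deleted replicate 1 left out, and 0.0233 to 0.0687 with 1 array left out. In that block fit the MLL-type median was -0.0332 (-0.153 to -0.0354 with 1 array left out) and the demethylase median -0.234.

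Reversals touched 12 uncalled regulators. With the spike block and deleted replicate 1 left out they were Asxl2 -0.0222, Bap1 -0.0451, Crebbp 0.133, Kat6a 0.0165, Kdm2b -0.104 and Kdm5b 0.133. With array weights they were Bap1 -0.0848, Crebbp 0.0585, Kat6a 0.0481, Kdm2b -0.0496 and Kdm5b 0.109. Within the high side they were Crebbp 0.160, Kat6a 0.110, Kdm2b -0.0897, Kdm5b 0.168 and Mllt1 0.0290, and within the low side Cbx7 -0.0231, Kat7 0.0344 and Tet3 -0.0436. Asxl1 was -0.0302 with the mean of its probe sets, and Kdm2b -0.0140 with the spike block. With 1 array left out the ranges were Bap1 -0.0782 to 0.126, Cbx7 -0.0209 to 0.127, Crebbp -0.308 to 0.125, Kat6a -0.101 to 0.0617, Kat7 -0.0899 to 0.0118, Kdm2b -0.0773 to 0.112, Kdm5b -0.0739 to 0.14 and Tet2 -0.0205 to 0.0482. The causes were not tested.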
